A study of Mus musculus with 11 samples.

Results

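The kinesin motor genes were taken as all genes in the expression tables whose symbol is Kif followed by a number and at most 1 letter, a, b or c. This rule found 36 genes among the 24898 listed in any of the 4 tables. All except Kif18b were in all 4 tables, and Kif18b was listed at E14 and E16. The cells came from wildtype CD1 mice of either sex, from the floor of the cochlear duct, the epithelium that holds the organ of Corti and the tissue on either side of it. Each library was a separate collection in which the cochleae of several animals were pooled, dissociated and captured in droplets for single-cell RNA sequencing of transcript 3′ ends. No group carried a transgene, a deletion or a drug. There were 2 libraries at embryonic day 14 (E14), 3 at E16, 4 at postnatal day 1 (P1) and 2 at P7, and age was the labelled difference between groups.

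Kinesins are motor proteins that use ATP to walk along microtubules or to take them apart at their ends. Some work only in dividing cells, where they build the spindle, move chromosomes and cut the daughter cells apart; others carry vesicles, organelles and RNA in cells that no longer divide, or build and shorten cilia. Hair cells (HCs), the mechanosensory cells of the cochlea, are made from cells that leave the cell cycle before birth, carry a primary cilium called the kinocilium while they mature, and release transmitter at ribbon synapses. The 36 members were placed in role groups by general knowledge of each motor: 12 mitotic or cytokinetic, 8 ciliary or Hedgehog, 12 transport and 4 with other or less clear roles.

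Many cell cycle genes carry short promoter elements, among them the CCAAT box and TTTGAA, the common core of the cell cycle homology region. Promoter sequence from RefSeq (build GRCm38.p6) was found for 29 of the 36 members. Below are 120 bases before the annotated start of 4 mitotic members that were high in dividing cells, and of Kif21a, a transport member that was high in supporting cells. Sequences run 5′ to 3′ on the gene's own strand, and capitals mark a CCAAT box or TTTGAA on either strand, so that a match on the opposite strand reads as ATTGG or TTCAAA.
Kif22, chr7:127042421-127042540, minus strand: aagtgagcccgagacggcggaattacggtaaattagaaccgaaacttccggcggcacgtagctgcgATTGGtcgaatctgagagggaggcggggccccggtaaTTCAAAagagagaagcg
Kif11, chr19:37376262-37376381, plus strand: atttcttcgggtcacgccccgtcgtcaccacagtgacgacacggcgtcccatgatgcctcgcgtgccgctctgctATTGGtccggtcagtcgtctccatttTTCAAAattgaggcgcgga
Kif15, chr9:122950961-122951080, plus strand: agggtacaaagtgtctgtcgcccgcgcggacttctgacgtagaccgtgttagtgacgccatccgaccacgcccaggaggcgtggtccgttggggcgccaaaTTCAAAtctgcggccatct
Kif23, chr9:61946800-61946919, minus strand: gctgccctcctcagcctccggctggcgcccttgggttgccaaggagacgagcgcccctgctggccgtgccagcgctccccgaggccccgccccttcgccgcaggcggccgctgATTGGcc
Kif21a, chr15:91049952-91050071, minus strand: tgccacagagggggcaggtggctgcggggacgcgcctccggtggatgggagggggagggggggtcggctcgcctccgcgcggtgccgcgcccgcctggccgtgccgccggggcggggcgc
In Kif22 and Kif11 a CCAAT box stood 54 and 45 bases before the start, with TTTGAA 17 and 19 bases before it. Kif15 held TTTGAA alone, 19 bases before the start, Kif23 held a CCAAT box alone, 7 bases before the start, and the Kif21a stretch held neither. The annotated span of Kif22 reached position 127042471 and that of Kif15 began at 122951046. The TTTGAA shown for Kif22 and for Kif15 thus lay inside the annotated gene. In the 250 bases before the start, a CCAAT box on either strand was found in 7 of 11 mitotic members and TTTGAA in 5 of 11, against 33.85% and 15.99% of all 32851 windows of that length. Kif18a and Kif20b held neither. Kif24, among those with a CCAAT box, was placed in the mitotic group by general knowledge, and a mitotic role was not tested. The windows of Kif14 (both elements), Kif2c (TTTGAA) and Kif4 (CCAAT box) lay wholly inside the annotated span of the gene. Whether such inner windows act as promoters was not tested. Among 8 transport members, each counted once where it had several annotated starts, 1 (Kif1b) held a CCAAT box and 1 (Kif1a) held TTTGAA. Of 7 ciliary or Hedgehog members, 4 held a CCAAT box and 1 (Kif27) held TTTGAA. The Kif1a window with TTTGAA and the Kif27 window also lay inside the gene. Of the members higher in G2/M cells, 8 had a window, of which 4 held a CCAAT box and 4 held TTTGAA. These matches describe letters in the windows and were not tested.

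The tables held 30634 cells, 1247 to 5598 in each of 11 libraries, with a median of 2478 to 5647.5 UMIs (unique molecular identifiers, counted transcripts) per cell and 3828399 to 23523802 UMIs per library. Libraries of the same age shared 9 to 62 cell barcodes each. No cell type annotation was used, so cells were grouped by gates on marker genes that include no kinesin, and a gate is a range of cells, not a type. HC-gated cells carried the 12 HC markers at 12587 to 29226 CPM summed per library, and all levels below are means over the cells of a gate in CPM, UMIs scaled to the same total in every cell. The cut fell near few HCs after birth: 3 of 1055 P1 cells and 0 of 265 P7 cells that passed had the minimum of 4 markers, against 12 of 57 at E14. Differences are log2 of the mean CPM plus a pseudocount of 10, so they understate changes of low genes, and were tested with limma across libraries, with Benjamini-Hochberg adjustment over all genes tested. Because transcripts were counted at their 3′ ends, levels are compared between cells for the same gene and not between genes.

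**Figure D1:**
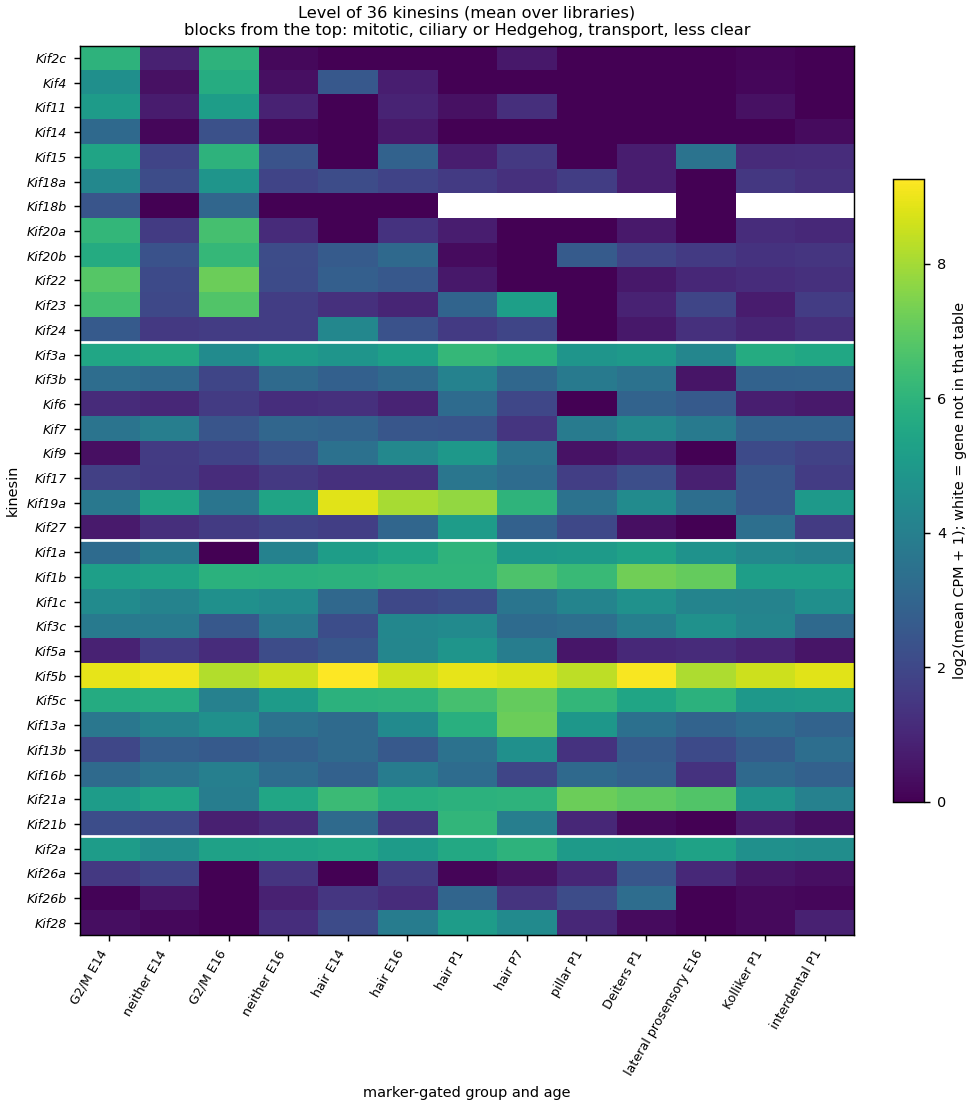
Mean level of each of the 36 kinesins (rows, ordered by role) in each gated group and age (columns), as log2 of the mean CPM over libraries plus 1. White marks a gene that is not in the table of that age. Brighter colours mark higher levels. Most mitotic rows are brighter in the G2/M columns of E14 and E16 than in the columns of neither gate. Kif19a is bright in the hair cell columns, and Kif5b is high throughout.

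In cells that passed a gate of G2/M markers (at least 5 of 20 genes of the late cell cycle), 9 mitotic kinesins were higher than in cells that passed neither the G2/M nor the S-phase gate, and the cilium-shortening motor Kif19a was lower, although not against cells without HCs (adjusted p = 0.0626). This comparison used E14, with 276 and 493 G2/M cells, and E16, with 40, 94 and 59. Over both ages, 10 of the 21 kinesins tested passed the threshold, and 9.95% of all 9031 genes tested did so, 5.1% with a higher and 4.85% with a lower level in G2/M cells. Genes had to average 10 CPM over the profiles to be tested, and none of the 9 mitotic members reached 10 CPM in the cells outside both gates, so these members entered the test through the G2/M cells themselves and their count is a description.

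Kif22, a chromokinesin that pushes chromosome arms towards the spindle equator, stood at 115 and 108 CPM in G2/M cells of the 2 E14 libraries, against 3.78 and 2.59 CPM in the other cells. At E16 it stood at 91.2, 153 and 190 CPM against 5.38, 2.85 and 1.71 CPM. Every G2/M value was above every value of the other cells, and the log2 difference was 3.35 (SE 0.27, adjusted p = 5.24e-06). Kif23, the motor of the centralspindlin complex at the midbody, reached 84.7 and 90.8 CPM at E14 and 122, 129 and 65.6 CPM at E16, while the other cells held 1.89 to 3.28 CPM. Its log2 difference was 3.05 (SE 0.23, adjusted p = 3.09e-06). Kif20a, which acts on the central spindle in cytokinesis, was at 71.1 and 68.8 CPM and at 38.1, 110 and 124 CPM, against at most 2.5 CPM outside the gates (2.88, SE 0.25, adjusted p = 1.01e-05).

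The other mitotic members followed the same order. Kif2c, a microtubule depolymerase at centromeres, was at 51.9 to 73 CPM at E14 and 25.7 to 95.1 CPM at E16 in G2/M cells, against less than 1 CPM outside the gates (log2 difference 2.72, SE 0.34, adjusted p = 0.000209). Kif20b, a motor of the late midbody, differed by 2.34 (SE 0.34, adjusted p = 0.000738), and Kif15, which helps to hold spindle poles apart, by 2.13 (SE 0.39, adjusted p = 0.0038). The chromokinesin Kif4 differed by 2.05 (SE 0.30, adjusted p = 0.000793), and Kif11, the motor that pushes spindle poles apart, by 1.92 (SE 0.35, adjusted p = 0.00342). Kif11 rested on 1 UMI in E16 replicate 1, where it stood at 6.74 CPM, against 52.9 and 43.7 CPM in the others. Kif18a, which damps chromosome movements, had the smallest difference of these members, 1.32 (SE 0.21, adjusted p = 0.0012). Its call was lost without E14 replicate 1 (adjusted p = 0.105) or 2 (adjusted p = 0.158), each of which left E14 with 1 library that was assumed to vary like the others. Kif4, Kif18a, Kif20a and Kif22 each share exon sequence with an annotated gene on the opposite strand, and how the counting used strand is not given in the sources used here. Kif14, Kif18b and Kif24 averaged under 10 CPM and were not tested there. Kif14 stood at 8.86 and 7.13 CPM in E14 G2/M cells and at 0.139 and 0.12 CPM outside the gates, and Kif18b had 20 UMIs in E14 G2/M cells and none outside the gates at either age.

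**Figure D2:**
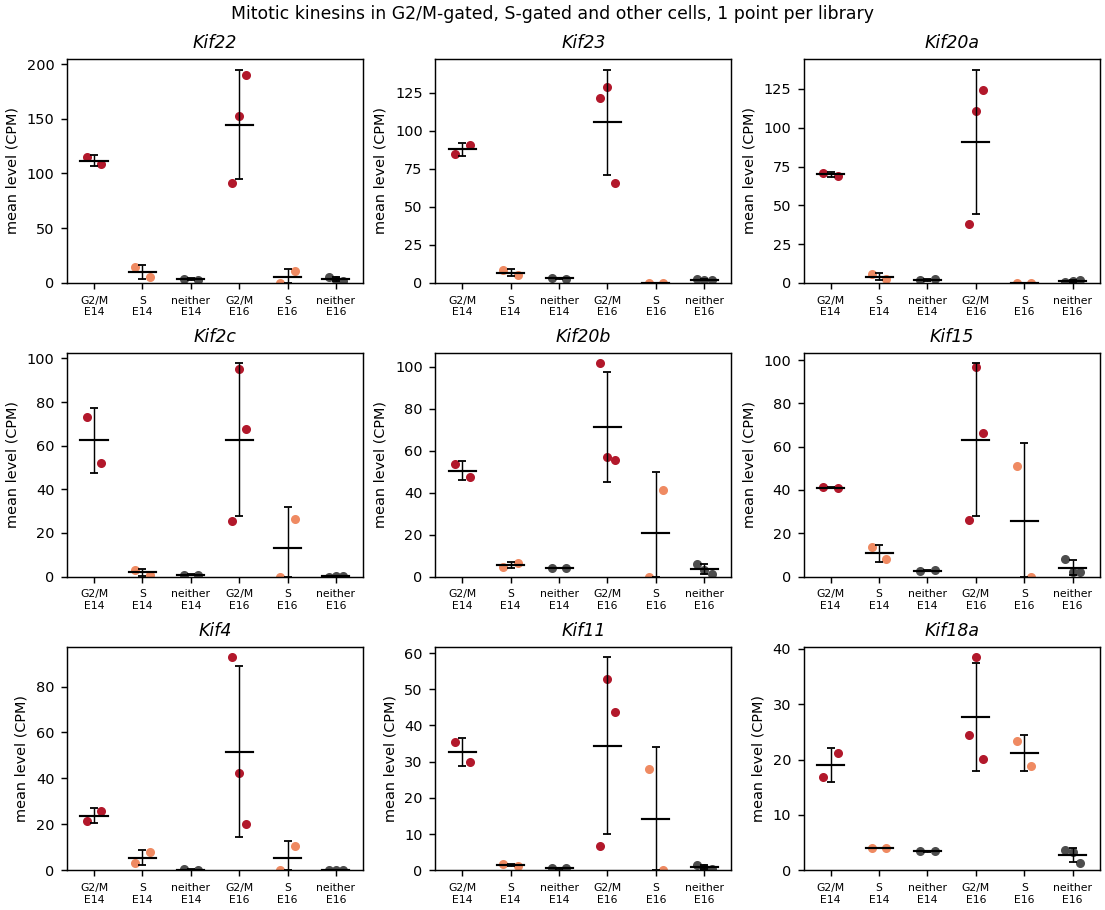
Level in CPM (linear axis) of the mitotic kinesins in G2/M-gated cells, S-gated cells and cells in neither gate at E14 and E16. Points are libraries and black bars are means. For Kif22, Kif23 and Kif20a the G2/M points lie above 38 CPM in every library, and the points of the other cells lie below 6 CPM.

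Among transport kinesins, 8 were tested in this comparison and none passed the threshold. Their log2 differences ran from -0.80 (Kif21a, SE 0.34, adjusted p = 0.19) to 0.19 (Kif1c, SE 0.21, adjusted p = 0.693). Kif5b, a heavy chain of conventional kinesin, was at 447 and 519 CPM in E14 G2/M cells against 507 and 557 CPM in the other cells. Kif19a was at 12.4 and 12.1 CPM in G2/M cells against 43.7 and 40.3 CPM at E14, and at 6.86, 21.7 and 4.53 CPM against 51.3, 42.3 and 29.9 CPM at E16. It was lower in 5 of 5 libraries, by -1.29 on the log2 scale (SE 0.24, adjusted p = 0.00436). This call was lost without E14 replicate 1 or 2 (adjusted p = 0.182 and 0.156), with a looser gate (adjusted p = 0.0508) and at E16 alone (adjusted p = 0.0879). The G2/M cells held almost no HC marker RNA, at 37.8 to 211 CPM summed, while the cells in neither gate included the HCs. Outside the HC gate those cells held Kif19a at 38.1 and 35.7 CPM at E14 and at 16.7, 18.3 and 19.4 CPM at E16, so that the G2/M cells of E16 replicate 2 were above them. With HCs left out of the reference, an alternative chosen after the data were seen, 9 kinesins passed the threshold, all of them mitotic, and the difference of Kif19a was -0.79 (adjusted p = 0.0626). Kif1a, a carrier of synaptic vesicle precursors, gave no UMI in the 3 E16 G2/M groups, in which 3 UMIs would amount to 7.32 to 21.8 CPM, and stood at 15, 17.7 and 15.5 CPM in the other cells. It averaged under 10 CPM, and without a filter it differed by -0.86 (SE 0.19, adjusted p = 0.0385, 5.17% of 19560 genes past the threshold). Outside the HC gate the E16 cells of neither gate held 12.3, 14.7 and 13.8 CPM of Kif1a.

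The groups differed in depth: G2/M cells of E14 had a median of 4938 and 4918 UMIs, and cells in neither gate 3251 and 3026. Of the cells that passed the G2/M gate, 84 of 769 at E14 and 25 of 193 at E16 had the minimum number of markers. At E14 4 kinesins passed the threshold (Kif20a, Kif22, Kif23 and Kif2c), where 2.62% of all genes did, and the other 5 of the 9 mitotic members had adjusted p of 0.0656 to 0.164. At E16 10 passed, where 10.6% did. Fitted with each age on its own, 8 of 20 kinesins passed the threshold at E14, where 26.7% of all genes did, and 9 of 21 at E16, where 5.52% did. The difference between the E16 and E14 contrasts passed the threshold for 0 of 9031 genes in limma.

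S-gated cells were those that passed the S-phase gate but not the G2/M gate, and cells that passed both counted as G2/M cells. At E14, 935 cells passed the S-phase gate, and 211 and 241 of them in the 2 libraries were left as S-gated. S-gated cells differed less, but this rule removed every cell with 5 or more G2/M markers from them, so their counts are a description. Over both ages, 0 of 21 kinesins passed the threshold in S-gated cells with limma, 2 had an unadjusted p under 0.05, and 2.81% of all genes passed the threshold. In the E14 S-gated cells Kif15 stood at 13.5 and 8.07 CPM, Kif18a at 4.05 and 3.97 CPM, and Kif11 at 1.63 and 1.25 CPM. The S-gated cells of E16 numbered 5, 23 and 30, and the 1 call there, Kif18a (log2 difference 1.29, SE 0.31, adjusted p = 0.0255, 8.39% of all genes), rested on 1 UMI in each library. Without E16 replicate 2, 3 kinesins passed the threshold in S-gated cells over both ages, and without E16 replicate 3, 2 did.

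The share of cells in the G2/M gate was largest at E14. After every cell was thinned to 1500 UMIs, 1 E16 cell being too shallow, the share was 7.97% ± 1.36 (SD, n = 2) at E14, 1.73% ± 0.534 (n = 3) at E16, 0.00667% ± 0.0133 (n = 4) at P1 and 0.359% ± 0.11 (n = 2) at P7. Unthinned, the shares were 12.6% and 16.1% at E14, 1.51 to 3.34% at E16, 0 to 0.0534% at P1 and 0.338 to 0.749% at P7. In 3 of the P1 libraries no thinned cell passed, among 2179, 2518 and 5598 cells, which allows shares of up to 0.138%, 0.119% and 0.0536% by counting error alone. Neighbouring ages did not overlap. The exact two-sided permutation p was 0.1 for E14 against E16, 0.0286 for E16 against P1 and 0.0667 for P1 against P7, each the smallest that its number of libraries allows, and 0.1, 0.0857 and 0.1 after adjustment over 6 comparisons. The share in the S-phase gate but not the G2/M gate ran 3.1%, 0.355%, 0.00993% and 0.153% over the same ages, with the same p-values. At P7, 13 of the 18 G2/M cells also passed the glia gate, and their glia markers summed to 6848 to 7373 CPM.

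Over the whole duct, mitotic kinesins averaged under 10 CPM over the 4 ages, so none passed the filter on low values, although 4 of them averaged at least 10 CPM at E14. A lower level here cannot tell fewer dividing cells from less RNA per cell. Without that filter, Kif11, Kif14, Kif20a, Kif22, Kif23 and Kif2c were lower at E16 than at E14, where 5.49% of all 18663 genes passed the threshold. Kif22 stood at 18.8 and 19.9 CPM at E14, 8.11, 7.84 and 4.64 CPM at E16, and 0.899 to 1.32 CPM at P1. Its log2 difference was -0.81 from E14 to E16 (SE 0.11, adjusted p = 0.00148) and -0.60 from E16 to P1 (SE 0.09, adjusted p = 0.00246). Kif2c fell from 10.2 and 8.91 CPM at E14 to 0.823 to 3.41 CPM at E16, and gave 2 UMIs in all at P1. From E16 to P1 7 mitotic members were lower (Kif11, Kif15, Kif20b, Kif22, Kif23, Kif2c and Kif4) and Kif21b, Kif26b and Kif27 were higher, against 8.87% of all genes past the threshold.

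Of the members that passed the filter over the whole duct, 11 in all and none of them mitotic, limma called 0 from E14 to E16 (1 with an unadjusted p under 0.05; 8.18% of all genes called) and 0 from E16 to P1 (2 with an unadjusted p under 0.05; 12.7%). From P1 to P7 it called 2, where 20.5% of all genes were called. Kif21a rose from 35.7, 45.4, 45.2 and 37.8 CPM at P1 to 81.4 and 84.5 CPM at P7, a log2 difference of 0.87 (SE 0.17, adjusted p = 0.00249). Kif2a, a depolymerase of microtubule ends, rose from 14.6 to 35.1 CPM to 51.9 and 51.3 CPM (0.78, SE 0.25, adjusted p = 0.0442). The P7 libraries also held 43 and 117 glia-gated and 59 and 118 mesenchyme-gated cells, while the P1 libraries held 0 of either. Without these cells, an alternative chosen after the data were seen, the log2 differences were 0.94 for Kif21a (adjusted p = 0.0014) and 0.82 for Kif2a (adjusted p = 0.0319). With the replicate number as a block 0 kinesins passed the threshold, and Kif21a had an adjusted p of 0.0808. Kif2a lost its call in 8 settings (adjusted p = 0.053 to 0.455), among them those without P1 replicate 1 or 2 or without either P7 library. Kif2a shares exon sequence with Dimt1 on the opposite strand.

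HCs held more RNA of Kif19a than other cells at every age, and of 9 transport motors tested 2 were higher in E14 HCs, 3 in E16 HCs, 7 in P1 HCs and 4 in P7 HCs, where 10%, 18.7%, 34.4% and 29.7% of all genes were higher. HC-gated cells were compared with all other cells that were in no cycle gate. Cells of the HC gate that also passed a pillar, Deiters', Hensen's, interdental, roof, glia or mesenchyme gate were left out of both groups, at most 8 in a library. HCs in a cycle gate were kept in the HC group: 4 of 23 and 3 of 34 cells in the E14 libraries, at most 1 in an E16 library, at most 2 in a P1 library and 0 in the P7 libraries. Of the 36 kinesins, 14, none of them mitotic, were abundant enough to be tested. At E14 4 passed the threshold, against 27.1% of all 9241 genes tested. At E16 7 passed (37.8%), at P1 13 (61.3%) and at P7 7 (56.7%). Without the HCs in a cycle gate, an alternative chosen after the data were seen, the counts were 5, 7, 13 and 7. All 7 P7 calls were higher in HCs. The P7 call of Kif9 was lost in 7 alternatives (limma adjusted p = 0.0502 to 0.276), among them those without P7 replicate 4 or 5. Of the P1 calls, Kif9, Kif13a, Kif21b and Kif28 averaged under 10 CPM in other cells and were tested through the HCs in which they were high, as were Kif9, Kif13a and Kif28 at E16 and Kif9, Kif21b and Kif28 at P7, so these counts are a description. Of the 10 members at 10 CPM or more in other cells at P1, 9 were called. Besides Kif19a, the E14 calls were Kif1a (0.96, adjusted p = 0.00513) and Kif21a (0.69, adjusted p = 0.0178), both higher, and Kif3c, lower by -0.75 (adjusted p = 0.0233). Each of these 3 was lost without 1 or both E14 libraries, with adjusted p from 0.0609 to 0.388. The P1 HCs were deeper than cells outside the cycle gates, with medians of 5324.5 to 9614 against 3830 to 5642 UMIs, and whether depth had a part in these differences was not tested.

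Among ciliary members, Kif19a, a depolymerase that keeps motile cilia short, was the most unequal at E14, E16 and P1. At E14 it stood at 526 and 382 CPM in HCs (23 and 34 cells) against 38.1 and 35.7 CPM in other cells. At E16 it stood at 247, 255 and 283 CPM against 16.7 to 19.4 CPM, and at P1 at 183, 217, 207 and 261 CPM against 10 to 11.9 CPM. At P7 it had dropped to 68 and 59.3 CPM against 9.63 and 24.1 CPM. HC values were above those of other cells in all 11 libraries, and the log2 difference was 3.29, 3.27, 3.41 (SE 0.15, adjusted p = 7.06e-13) and 1.51 (SE 0.22, adjusted p = 8.95e-06) at the 4 ages. The P7 difference was smaller than that of P1 by -1.90 on the log2 scale (SE 0.26, adjusted p = 2.58e-05), where 27.8% of all genes had a difference that changed. Kif9, a motor of motile cilia, was at 29, 35.1, 42.8 and 10.6 CPM in P1 HCs against 0.867 to 3.77 CPM in other cells (1.56, SE 0.23, adjusted p = 7.49e-06). Kif3a, a subunit of the kinesin that drives intraflagellar transport, differed by 0.60 at P1 (SE 0.19, adjusted p = 0.0108), but not without P1 replicate 2 (adjusted p = 0.0508) or 4 (adjusted p = 0.0519).

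Kif27, a ciliary relative of the Hedgehog regulator Kif7, was below the filter of that fit, but its level in HCs moved with age. It stood at 4.05, 9.1 and 9.01 CPM at E16, at 18.4, 33.1, 38.4 and 45.5 CPM at P1, and at 6.7 and 6.1 CPM at P7. Within HCs, where 17 kinesins were tested, it rose by 1.31 from E16 to P1 (SE 0.28, adjusted p = 0.00348) and fell by 1.38 from P1 to P7 (SE 0.32, adjusted p = 0.00448). It was under 10 CPM in E16 and P7 HCs and was tested mainly through the P1 HCs, so both calls are a description. The fall was lost without P7 replicate 4 (adjusted p = 0.0525) or 5 (adjusted p = 0.0746). Other cells moved alike at a lower level, with 1.99 to 2.26 CPM, then 3.89 to 11.5 CPM, then 1.14 and 1.56 CPM. Without the filter, Kif27, Kif6, Kif17 and Kif3b were higher in P1 HCs than in other cells, with log2 differences of 1.33, 0.70, 0.57 and 0.65, against 40.6% of 18663 genes past the threshold. Kif7 was lower in P7 HCs, by -0.82 (SE 0.23, adjusted p = 0.0119, 36.8% of genes). Kif17 shares exon sequence with Sh2d5 on the same strand, and Kif7 with Ticrr on the opposite strand.

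Transport members differed at distinct ages. Kif21b, a motor that pauses microtubule growth, was at 1.8, 1.32 and 2.48 CPM in E16 HCs, hardly above the 0.512 to 1.77 CPM of other cells. At P1 it was at 56, 87.6, 69.1 and 56.8 CPM against 0.275 to 0.627 CPM, and at P7 at 14.1 and 15.4 CPM against 1 UMI in all other cells together. The P1 difference was 2.86 (SE 0.19, adjusted p = 1.45e-10). It was larger than at E16 by 2.77 (SE 0.29, adjusted p = 3.4e-06), where 19.6% of all genes changed, and larger than at P7, by a difference of -1.56 between P7 and P1 (SE 0.32, adjusted p = 0.00132). Every P1 library had a higher level of Kif21b in HCs than every library of E16 or P7. Kif21b reached the filter mainly through these P1 HCs, so both changes are a description.

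Kif13a, which carries endosomes and mannose-6-phosphate receptors, kept on rising instead. It stood at 14.7 and 1.67 CPM in E14 HCs, from 4 UMIs in all, at 24.1, 23 and 14.8 CPM at E16, at 45.1, 45.7, 51.6 and 86.1 CPM at P1 and at 140 and 146 CPM at P7. Other cells stayed between 6.64 and 16.9 CPM throughout. The log2 difference from other cells was 0.68 at E16 (SE 0.20, adjusted p = 0.0115), 1.75 at P1 (SE 0.17, adjusted p = 5.21e-08) and 2.71 at P7 (SE 0.25, adjusted p = 2.72e-08). The difference grew at each step, by 1.34 from E14 to E16 (adjusted p = 0.00938, 14.1% of all genes changed), 1.07 from E16 to P1 (adjusted p = 0.00791) and 0.96 from P1 to P7 (adjusted p = 0.0226). The E16 call was lost without E16 replicate 1 (adjusted p = 0.0789) or 2 (adjusted p = 0.0712).

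The conventional kinesin heavy chain Kif5c was at 76.3, 82.3, 96.1 and 111 CPM in P1 HCs against 27.9 to 40.7 CPM in other cells (1.22, SE 0.16, adjusted p = 1.52e-06). At P7 it was at 153 and 114 CPM against 27.7 and 30.4 CPM (1.87, SE 0.22, adjusted p = 7.86e-07). Its relative Kif5b was close in both groups, with a P1 difference of 0.24 (SE 0.10, adjusted p = 0.0411) that 7 alternative settings removed (adjusted p = 0.0575 to 0.28), among them those without P1 replicate 1 or 4. Kif1a was at 38.3, 83.2, 68.1 and 65.6 CPM in P1 HCs against 19 to 23.1 CPM (1.21, SE 0.17, adjusted p = 3.72e-06), but at P7 it was at 28.3 and 31 CPM against 20.1 and 32.7 CPM. That change of the difference was -1.07 (SE 0.29, adjusted p = 0.00898). Kif1b, a carrier of mitochondria and synaptic vesicle precursors, differed by 0.56 at P1 (adjusted p = 0.00242) and 1.03 at P7 (adjusted p = 0.000286).

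Kif1c, a fast vesicle and RNA carrier, went the other way. It was at 3.87, 4.19 and 0.909 CPM in E16 HCs against 27.5, 28.6 and 13.4 CPM in other cells (-1.33, SE 0.19, adjusted p = 2.01e-05), and at 2.42, 4.03, 3.44 and 4.38 CPM at P1 against 13.9 to 22.3 CPM (-1.04, SE 0.17, adjusted p = 2.71e-05). At P7 the groups overlapped, at 11.4 and 11 CPM against 9.67 and 12.7 CPM. The change of the difference from P1 to P7 was 1.05 (SE 0.29, adjusted p = 0.0113). Of the members with other roles, Kif28 was at 14.4, 47.3, 46 and 28.3 CPM in P1 HCs against 0.265 to 1.04 CPM (1.98, SE 0.21, adjusted p = 1.16e-07), and at 18.6 and 22.1 CPM at P7 against 0.461 and 0.743 CPM. Kif28 shares exon sequence with Ahctf1 on the same strand. Kif2a differed by 0.71 at P1 (SE 0.16, adjusted p = 0.0009), where at E16 it stood at 41.9, 26.2 and 30.6 CPM in HCs against 53.5, 39.9 and 30.8 CPM in other cells.

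**Figure D3:**
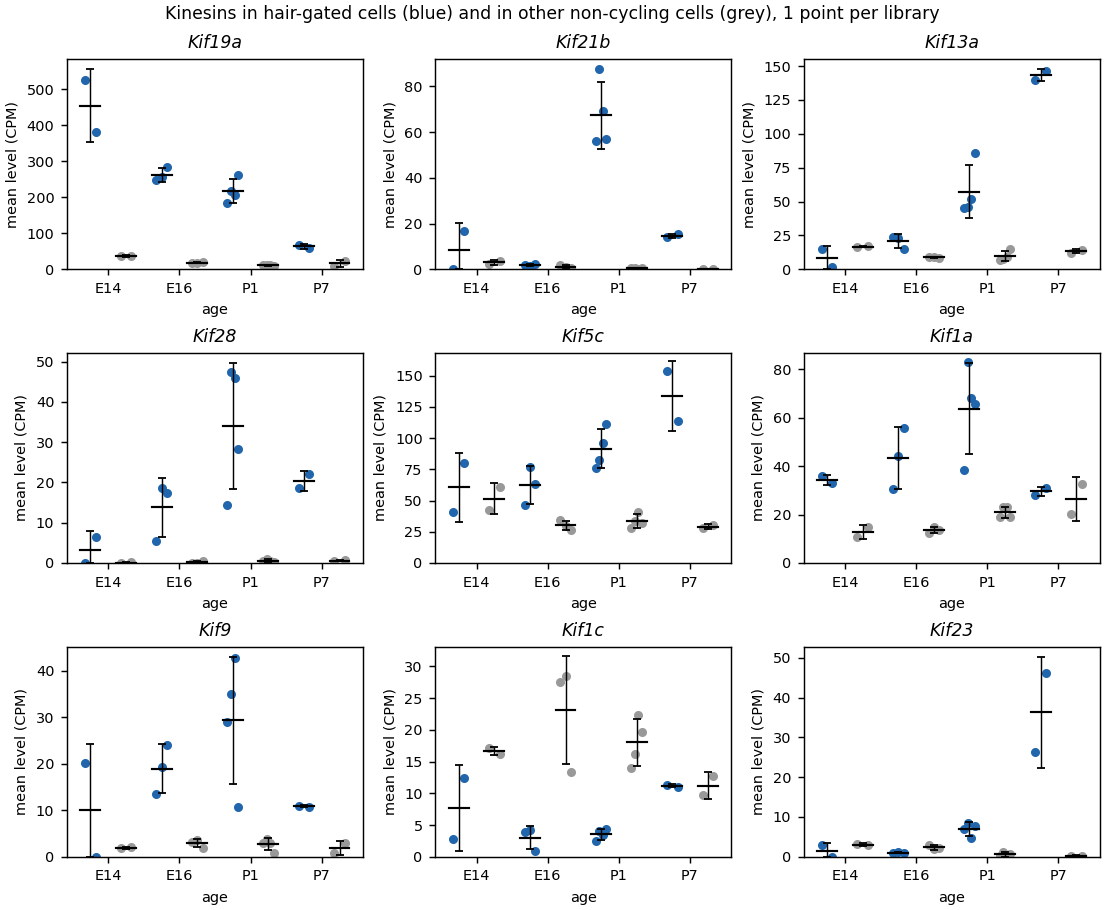
Level in CPM of kinesins in HC-gated cells and in other cells outside the cycle gates at E14, E16, P1 and P7. Points are libraries and black bars are means. Kif19a falls in HCs to 68 and 59.3 CPM at P7, Kif21b peaks at P1, and Kif13a is highest at P7, at 140 and 146 CPM.

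Within HCs alone, 17 kinesins were tested between ages. From E14 to E16 Kif3c, a neuronal subunit of kinesin-2, rose from 4.53 and 2.58 CPM (2 UMIs in all) to 14.6, 20.7 and 20.1 CPM (1.07, SE 0.32, adjusted p = 0.0301, 14.8% of all 9077 genes past the threshold). It was under 10 CPM in E14 HCs and was tested through later HCs in which it was higher, so this call is a description. From E16 to P1 Kif21b (2.69), Kif27 and Kif13a (1.11) rose, where 15.2% of all genes passed. Kif21b and Kif27 were under 10 CPM in E16 HCs and were tested mainly through the P1 HCs, so their calls are a description. From P1 to P7 Kif13a rose by 1.23 (SE 0.34, adjusted p = 0.0151). Over the same step Kif21b fell by 1.63 (SE 0.35, adjusted p = 0.00235) and Kif19a fell by 1.61 (SE 0.24, adjusted p = 6.91e-05), where 17.8% of all genes passed. The fall of Kif21b, tested mainly through the P1 HCs, is a description as well. Kif21b lost its call with a pseudocount of 1 (adjusted p = 0.0949) and with the replicate block (adjusted p = 0.175), and Kif27 with the block (adjusted p = 0.0671). Kif13a lost its call from E16 to P1 without E16 replicate 3 (adjusted p = 0.07), with a pseudocount of 1 (adjusted p = 0.0734) and with the block (adjusted p = 0.0797), and from P1 to P7 without P7 replicate 4 (adjusted p = 0.105) or 5 (adjusted p = 0.151). With the replicate number as a block, 1 kinesin passed the threshold from P1 to P7, and Kif13a had an adjusted p of 0.604.

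The mitotic motor Kif23 was present in postnatal HCs, and none of its UMIs there came from an HC in a cycle gate. It stood at 7.07, 8.4, 4.6 and 7.8 CPM in P1 HCs against 0.107 to 1.3 CPM in other cells, and at 26.3 and 46.2 CPM in P7 HCs, from 21 and 48 UMIs, against 0.15 and 0.29 CPM. In E14 HCs it gave 1 UMI and at E16 3, at 0.846 to 1.06 CPM. It was under the filter on low values, and in the fit without that filter the log2 difference was 0.68 at P1 (SE 0.11, adjusted p = 0.000275) and 2.14 at P7 (SE 0.15, adjusted p = 4.55e-07), where 36.8% of all genes passed the threshold. The P7 difference was larger than that of P1 by 1.47 (SE 0.19, adjusted p = 0.000216, 17.2% of all genes changed), and within HCs Kif23 rose by 1.42 from P1 to P7 (SE 0.25, adjusted p = 0.00292, 9.24% of all genes past the threshold).

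The 20 G2/M markers, which include no kinesin, did not keep 1 order between HCs and other cells. They summed to 99.5 to 182 CPM in P1 HCs against 47.1 to 94.1 CPM in other cells, with 132 CPM for Cdca3, the highest value of a single marker in these HCs. At P7 they summed to 53.5 to 65.3 CPM in HCs against 82.4 to 88.7 CPM in other cells, and 3 of the 20 were at 0 in HCs of both libraries. Kif20a and Kif22 gave no UMI in P7 HCs, in which 3 UMIs amount to 2.95 to 3.49 CPM, and Kif2c gave 1. Racgap1, the partner of Kif23 in centralspindlin, stood at 2.47 and 2.57 CPM, and Prc1, which bundles midzone microtubules, at 0 and 0.51 CPM.

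Inner and outer HCs (IHCs and OHCs), which carry sound to the brain and amplify it respectively, were split within the HC gate by at least 3 markers of either kind. At P1, with 192 IHCs and 451 OHCs, 2 of 19 kinesins tested passed the threshold, against 9.27% of 9071 genes. Kif5c was at 92.4, 88.3, 145 and 148 CPM in IHCs and at 68.7, 71.2, 75.8 and 95.5 CPM in OHCs (0.52, SE 0.17, adjusted p = 0.0397). Kif5b was at 341 to 464 CPM in IHCs and 415 to 580 CPM in OHCs, lower in IHCs in 4 of 4 libraries (-0.34, SE 0.10, adjusted p = 0.0243). The Kif5c call was lost in 10 alternatives and the Kif5b call in 8, and no kinesin passed the threshold without P1 replicate 1, 3 or 4.

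At P7, with 97 IHCs and 141 OHCs, 8 of 19 passed the threshold, against 12.3% of all genes. Kif28 was at 44 and 59 CPM in IHCs and at 0 and 3.76 CPM in OHCs, from 34 and 4 UMIs, a log2 difference of 2.38 (SE 0.35, adjusted p = 2.35e-06). Kif21b was at 28 and 40.3 CPM in IHCs and 3.07 and 3.08 CPM in OHCs (1.74, SE 0.31, adjusted p = 6.48e-05). Kif19a was at 111 and 87.3 CPM against 33.4 and 46.7 CPM (1.13, SE 0.22, adjusted p = 0.000236), Kif5c at 206 and 190 CPM against 118 and 70.5 CPM (1.03, SE 0.24, adjusted p = 0.00205), and Kif9 at 23.5 and 21.7 CPM against 2.2 and 5.75 CPM (1.23, SE 0.39, adjusted p = 0.0282). These 5 were higher in IHCs in both libraries.

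Kif23, Kif13a and Kif5b were higher in OHCs at P7. Kif23 was at 41.1 and 65.3 CPM in OHCs and 8.96 and 19.5 CPM in IHCs (-1.39, SE 0.38, adjusted p = 0.00964), although this call was lost in 7 alternatives, with adjusted p from 0.0537 to 0.332. It averaged under 10 CPM in P1 OHCs, so it reached the filter mainly through the P7 OHCs in which it was high, and its call and its place in the counts are a description. Kif13a was at 186 and 180 CPM in OHCs against 80.1 and 83.2 CPM in IHCs (-1.07, SE 0.27, adjusted p = 0.00587). Kif5b was at 560 and 434 CPM against 376 and 288 CPM (-0.57, SE 0.14, adjusted p = 0.00489). The IHC to OHC difference changed between P1 and P7 for Kif28 (by 1.67, adjusted p = 0.00863), Kif21b (1.31, adjusted p = 0.0222), Kif19a (0.92, adjusted p = 0.0233) and Kif23 (-1.49, adjusted p = 0.037), where 7.56% of all genes had a difference that changed. The P7 count fell to 3 without either P7 library, to 2 without cells of more than 3000 genes and to 1 with a looser gate. Kif28 kept its call in all of these, while Kif9, Kif13a, Kif5b, Kif5c, Kif19a and Kif21b lost theirs in 8, 4, 4, 3, 3 and 2 alternatives. Without P7 replicate 4 the calls of Kif13a, Kif19a, Kif23, Kif5b and Kif9 were lost, and without P7 replicate 5 those of Kif13a, Kif23, Kif5b, Kif5c and Kif9.

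**Figure D4:**
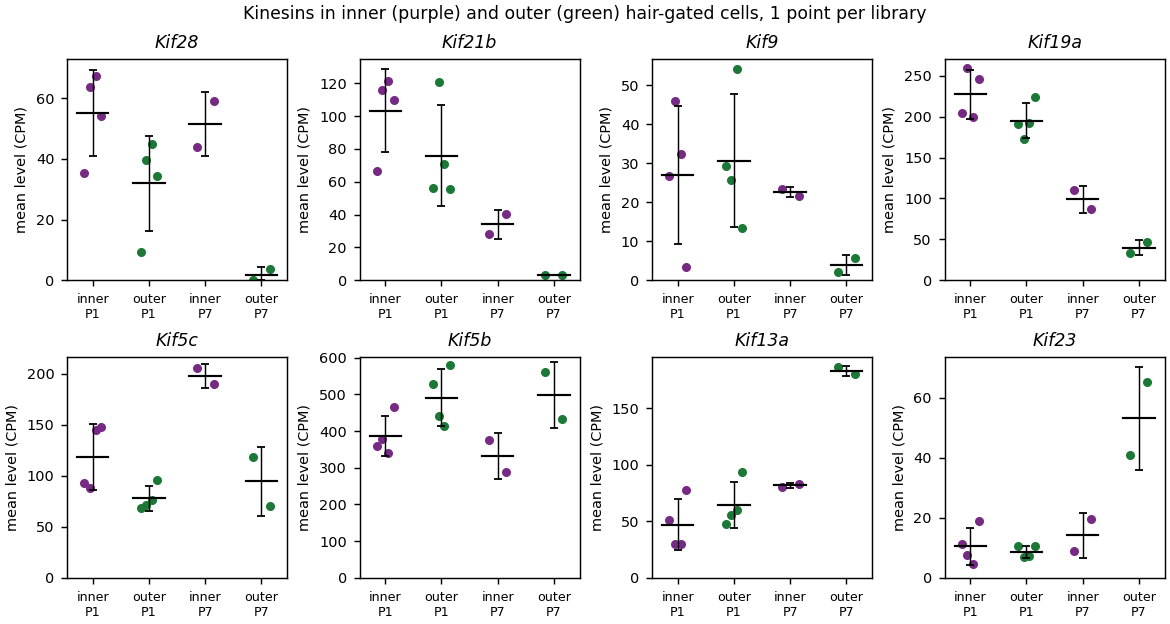
Level in CPM of kinesins in IHC-gated and OHC-gated cells at P1 and P7. Points are libraries and black bars are means. At P7 Kif28 and Kif21b are high in IHCs and near 0 in OHCs, and Kif13a is higher in OHCs, at 186 and 180 CPM against 80.1 and 83.2 CPM.

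The gates overlap at the edges. IHC-gated cells of P7 carried OHC markers at 2012 to 2619 CPM summed, against 13464 to 14396 CPM in OHC-gated cells, and HC-gated cells of P7 carried markers of Kölliker's organ (KO), the epithelium on the inner side, at 3698 to 5200 CPM. The part of either in these differences was not tested.

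PCs and DCs held more RNA of Kif21a, a motor that limits microtubule growth, than the other non-HCs of the duct after birth. Kif21a was also called higher in P1 HCs, a call lost without cells of more than 3000 genes (limma adjusted p = 0.15). In pillar cells (PCs), which form the tunnel between IHCs and OHCs, Kif21a stood at 65.3, 164, 175 and 175 CPM at P1, against 34.3 to 41.9 CPM in other cells that were neither HCs nor in a cycle gate. At P7 it was at 289 and 225 CPM against 80.1 and 85.5 CPM. The log2 difference was 1.60 at P1 (SE 0.24, adjusted p = 0.000136) and 1.52 at P7 (SE 0.35, adjusted p = 0.0043, 20.2% of all genes past the threshold), higher in all 6 libraries. Kif21a was the 1 kinesin of those tested that passed the threshold in P1 PCs, where 14.8% of 8669 genes did. In E16 PCs, from 11 and 20 cells with 2 and 3 UMIs of Kif21a, it was at 30.9 and 33.6 CPM against 38.1 and 37.8 CPM, and 0 of 13 kinesins passed the threshold in limma (4 with an unadjusted p under 0.05; 15.9% of all genes called). The P1 PCs numbered 59, 31, 22 and 43, and the first of these groups, the lowest for Kif21a, was also the deepest, with a median of 10316 UMIs per cell.

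Deiters' cells (DCs), which hold the OHCs from below, showed the same difference and a second one. Kif21a was at 98.7, 133, 135 and 129 CPM in P1 DCs against 30.8 to 39.5 CPM (1.57, SE 0.20, adjusted p = 0.000322) and at 251 and 223 CPM at P7 against 78.8 and 83.6 CPM (1.44, SE 0.29, adjusted p = 0.00735, 13.7% of all genes past the threshold). Kif1b was at 138, 173, 154 and 147 CPM in P1 DCs against 29.4 to 46.7 CPM (1.83, SE 0.23, adjusted p = 0.000293). At P7 Kif1b was at 72.1 and 71 CPM against 38.8 and 48 CPM and missed the threshold (0.62, SE 0.33, adjusted p = 0.273). In P1 DCs Kif5b was also higher, by 0.51 (SE 0.14, adjusted p = 0.0305), and 15.6% of 8642 genes passed the threshold in P1 DCs. The Kif5b call was lost in 7 alternatives (adjusted p = 0.0559 to 0.158), among them those without P1 replicate 1, 3 or 4. P1 PC-gated cells carried the 10 DC markers at 3971 to 6468 CPM summed, against 7643 to 9110 CPM in DC-gated cells, and the part of this in the shared difference was not tested. Of all P1 cells that passed each gate, 30 of 159 for PCs and 138 of 784 for DCs had the minimum number of markers.

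Before birth Kif21a was raised in lateral prosensory cells at E14 and E16, and Kif1b was called there at E16 only. These embryonic cells of the later OHC region were gated by markers such as Fgfr3, Prox1 and Ngfr. Kif21a was at 102 and 151 CPM there at E14 against 35.7 and 43 CPM in other cells (1.45, SE 0.34, adjusted p = 0.0271, 3.4% of 8849 genes past the threshold). At E16 it was at 181, 52 and 85.4 CPM against 48, 37.4 and 36.3 CPM (1.05, SE 0.28, adjusted p = 0.027, 9.15% of genes), and Kif1b was at 175, 119 and 103 CPM against 75.2, 55.1 and 35.2 CPM (1.14, SE 0.23, adjusted p = 0.00562). Every library had the higher value in the gated cells. The E14 call for Kif21a was lost without either E14 library (adjusted p = 0.34 and 0.937) and with a stricter gate (adjusted p = 0.391). Without E16 replicate 3 no kinesin passed the threshold at E16 (Kif21a, adjusted p = 0.0959, and Kif1b, adjusted p = 0.0544). In E16 DCs, in the 2 libraries with at least 10 such cells, Kif21a was at 286 and 112 CPM against 36.8 and 37 CPM and Kif1b at 126 and 245 CPM against 57.7 and 35.1 CPM (adjusted p = 0.00137 and 0.00567, 21.7% of all genes past the threshold).

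**Figure D5:**
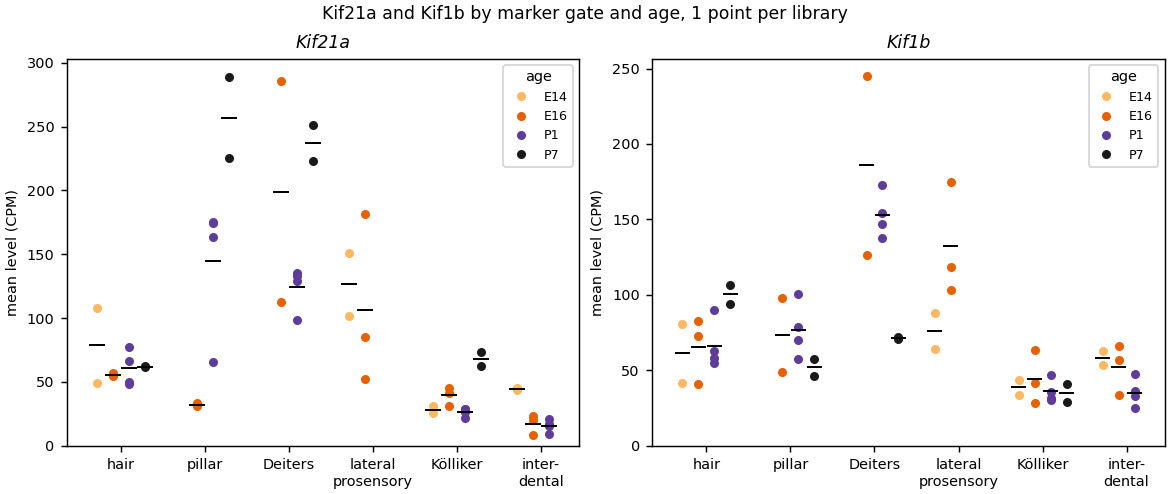
Level in CPM of Kif21a and Kif1b in each gated group by age. Points are libraries and black bars are means. By mean over libraries, Kif21a is highest in PCs and DCs at P7, with points between 223 and 289 CPM, although an E16 DC library lies in the same range. Kif1b is highest by mean in DCs at E16 and P1.

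KO cells, the columnar cells beside the IHCs, and interdental cells, which secrete the tectorial membrane at the inner edge, held less of several of these motors. In P1 KO cells 4 of the 11 kinesins tested were lower and 0 were higher, while 11.8% of 8696 genes were lower and 7.1% higher. Kif19a was at 2.6, 4.96, 5.85 and 5.75 CPM in KO cells against 12.9 to 20.5 CPM in the other non-HCs (-0.92, SE 0.13, adjusted p = 4.9e-05). Kif21a was at 28.4, 29.1, 26.6 and 21.6 CPM against 40.6 to 67.1 CPM (-0.79, SE 0.11, adjusted p = 5.94e-05), and Kif1b and Kif5b differed by -0.32 (adjusted p = 0.0125) and -0.23 (adjusted p = 0.0067). Kif1b lost its call without P1 replicate 2 (adjusted p = 0.1) or 3 (adjusted p = 0.0583). In KO cells Kif19a was also lower at E14, E16 and P7, by -0.75, -0.99 and -1.36, where 8.62%, 12.6% and 7.92% of all genes were lower. The KO difference of Kif21a moved by -0.67 from E16 to P1 (4.17% of all genes changed) and that of Kif2a by -0.65 from P1 to P7 (12.4% of all genes). Of the 6418 P1 cells that passed the KO gate, 2244 had the minimum number of markers.

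In P1 interdental cells Kif21a was at 9.26, 15.2, 21 and 17 CPM against 37.1 to 44.5 CPM (-1.01, SE 0.21, adjusted p = 0.00192), and Kif3c at 7.03, 6.25, 5.72 and 12.5 CPM against 13.7 to 23.9 CPM (-0.65, SE 0.19, adjusted p = 0.0249). Both were lower in every library, where 15.1% of 8805 genes passed the threshold, but Kif3c missed the threshold when any 1 P1 library was left out (adjusted p = 0.0807 to 0.123). Kif19a was at 49.9, 50.5, 12.4 and 12.6 CPM against 7.9 to 11.8 CPM (0.91, SE 0.27, adjusted p = 0.0255). P1 replicates 1 and 2 stood far above the others, and the call was lost without replicate 1 (adjusted p = 0.229) or 2 (adjusted p = 0.237). At P1 the level of Kif19a thus ran from at most 5.85 CPM in KO cells to at least 183 CPM in HCs.

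Light chains, adaptors and spindle partners of the kinesins were followed as a list of 20 genes. In G2/M cells 5 of 15 tested were higher, the kinetochore motor Cenpe, the minus-end motor Kifc1, Prc1, Racgap1 and the spindle assembly factor Tpx2, and the light chain Klc3 was lower, where 5.1% of all genes were higher and 4.85% lower. Each of the 5 was under 10 CPM in the cells outside both gates and was tested through the G2/M cells, so that count is a description. Kifc1 has a near-identical copy in the mouse genome, so its counts are uncertain. In HCs of P1 8 of 12 tested were higher, among them the kinesin-2 adaptor Kifap3, the light chains Klc2 and Klc4 and the cargo adaptors Mapk8ip1, Mapk8ip3, Hap1 and Trak2, and Klc3 was lower, where 34.4% of all genes were higher and 26.9% lower. Between IHCs and OHCs at P7 3 of 14 were higher in IHCs (Kifap3, Kifc3 and Madd, the adaptor of Kif1a and Kif1b cargo) and 2 were higher in OHCs (Mapk8ip1 and Trak1), where 6.8% and 5.46% of all genes were.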

How the data were processed

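Cochlear duct cells of 11 libraries were profiled with the 10x Genomics Chromium system. The submitters' processing notes name Cell Ranger 2.1.1, the mm10 build and Seurat 2.0. The deposited values are the natural log of 1 plus the UMI count per 10000 UMIs of a cell, made by the authors after filters on cells and genes seen in at least 10 cells. UMIs were recovered from them, and 100% of values came out whole within a tolerance of 0.02. No doublet caller was run, and 2440 of 30634 cells had more than 3000 genes.

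Cells were gated by fixed marker lists, with cuts set after marker levels were seen but not those of kinesins. Mean CPM per gate and library (at least 10 cells) was tested as log2(CPM + 10) with limma 3.58.1 in R 4.3.3, for genes averaging 10 CPM over the fit, with the library as a block between gates and none between ages. Count models were not used. The threshold was an adjusted p of 0.05. Members past it were named by size, up to 8 in each direction. The members, lists and comparisons were chosen with earlier results of these data known. The labels do not say whether equal replicate numbers pair libraries. Deviations correlated by -0.283 to 0.112 for equal numbers and by -0.261 to 0.291 for unequal ones. With 2 libraries at E14 and at P7 these values mirror each other, so they cannot decide it. The fit was checked on drawn data with known changes before use. Of 100 genes changed by 1 log2 unit it recovered 38% in G2/M cells and 67% in P1 HCs. Of 100 changed by 2 it recovered 93% and 96%, and 0% of calls were false. Changes of about 1 log2 unit could thus be missed. The 100 changed genes were drawn among 9031 and 9241, while 9.95% and 61.3% of genes passed the threshold in the data. Whether recovery and false calls are the same at such shares was not tested. The libraries are independent collections. All ages of a comparison were in 1 fit that shared its residual spread. The p-values at E14 or P7, with 2 libraries each, thus do not measure the spread of those libraries alone. For IHCs against OHCs, 4 residual degrees of freedom stood beside 35.2 taken from the spread over all genes. Counting limits cover counting error only. Python 3.11.15 with scipy 1.17.1 and matplotlib 3.10.9 was used otherwise. Gene positions came from GENCODE on GRCm38.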

Additional observations from a re-analysis of the deposited data

Results flagged for a closer look

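Among the 55 sets of 4 P1 libraries examined, 6 held a library far from the other 3 by Dixon's critical value for the gap as a share of the range, and chance alone gives such a gap in about 1 of 20 sets. In HCs Kif13a had a gap of 0.843 of the range (86.1 CPM in replicate 4 against at most 51.6 CPM) and Kif5b one of 0.84. Kif21a had a gap of 0.893 in PCs (65.3 CPM in replicate 1) and of 0.831 in DCs (98.7 CPM in replicate 1). Kif21b had a gap of 0.899 in cells outside the HC gate, where all levels were under 1 CPM, and Kif19a one of 0.859 in cells outside the KO gate.

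The difference between HCs and other cells changed with age for 8 kinesins by a limma test of the change itself, 2 of 14 tested from E14 to E16, 3 from E16 to P1 and 6 from P1 to P7, where 14.1%, 19.6% and 27.8% of all genes changed. From E14 to E16 the log2 difference moved by 1.34 for Kif13a and 1.09 for Kif3c, and from E16 to P1 by 2.77 for Kif21b, 1.07 for Kif13a and 0.96 for Kif2a. From P1 to P7 it moved by 1.05 for Kif1c, 0.96 for Kif13a, -0.90 for Kif21a (adjusted p = 0.012), -1.07 for Kif1a, -1.56 for Kif21b and -1.90 for Kif19a. Kif21b reached the filter mainly through the P1 HCs in which it was high. Kif13a averaged under 10 CPM in other cells at E16 and P1. The counts that include these 2 members are thus a description. The difference between IHCs and OHCs moved from P1 to P7 by 1.67 for Kif28, 1.31 for Kif21b, 0.92 for Kif19a and -1.49 for Kif23, 4 of 19 tested against 7.56% of all genes. Kif23 reached that filter mainly through the P7 OHCs, so this count is a description too. The difference between KO cells and the other non-HCs moved by -0.67 for Kif21a from E16 to P1 (adjusted p = 0.0395, 1 of 11 tested against 4.17% of all genes) and by -0.65 for Kif2a from P1 to P7 (adjusted p = 0.0433, 1 of 11 against 12.4%).

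The 18 P7 cells in the G2/M gate, 6 and 12 in the libraries and so short of the 10 cells required in 1 of them, entered no comparison and held UMIs of 8 mitotic kinesins beyond the 3 that a count of 0 allows. They were 13 for Kif23, 13 for Kif2c, 10 for Kif20a, 8 for Kif22, 6 for Kif20b, 5 for Kif4, 4 for Kif11 and 4 for Kif15. Of these cells 13 also passed the glia gate.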

How the results depend on the processing

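Of 345 counts of kinesins past the threshold under an alternative setting, 277 were within 1.5 times the reported count. Of 1380 values of called members, 1234 kept direction and call, 146 missed the threshold and 0 changed sign, and 0 of 54 alternative shares changed sign. The cause was not tested for any of the following counts. In PCs at P1, against 1 reported, 2 passed with UMIs pooled over cells, a looser gate or no cells of more than 3000 genes, 3 with a pseudocount of 50 or means of the deposited log values, 4 with a stricter gate, at least 20 cells or each age fitted alone, and 5 with no filter or weights by UMIs. DCs at P1, at 3, had 5 with the stricter gate and 6 with at least 20 cells, UMI weights or P1 alone. Lateral prosensory cells at E14, at 1, had 0 with a pseudocount of 1, no filter or the stricter gate, 2 with UMI weights, 3 with E14 alone and 4 with log means. At E16, at 2, they had 1 with a pseudocount of 1, no filter or E16 alone. HCs at E14, at 4, had 1 with UMI weights or E14 alone, and at E16, at 7, they had 4 with log means. IHCs against OHCs at P1, at 2, had 0 with no filter, a looser or stricter gate or no cells of more than 3000 genes, 1 with a pseudocount of 1 or log means, and 4 with UMI weights or P1 alone. At P7, at 8, they had 1 with the looser gate and 2 without cells of more than 3000 genes. S-gated cells, at 0, had 1 at E14 alone. Over the whole duct no filter gave 6 from E14 to E16, 10 from E16 to P1 and 4 from P1 to P7 (reported: 0, 0 and 2), log means gave 2 and 3 for the first steps, and a pseudocount of 1 or UMI weights gave 1 for the last. Within HCs log means gave 9 from E16 to P1 and 7 from P1 to P7 (reported: 3 and 4), and a pseudocount of 1 gave 2 for the last step.

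Whether equal replicate numbers pair libraries is not known. With the replicate block, 0 kinesins passed from P1 to P7 over the whole duct and 1 within HCs; the block moved no other count by over 1.5 times.

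With each library left out in turn, the counts ran from 8 to 12 in G2/M cells, 0 to 3 in S-gated cells, 4 to 6, 6 to 8, 11 to 13 and 6 to 7 in HCs at E14, E16, P1 and P7, 1 to 1 in PCs, 2 to 3 in DCs, 0 to 0 and 0 to 3 in lateral prosensory cells at E14 and E16, 3 to 4 in KO cells, 1 to 2 in interdental cells, 0 to 2 and 3 to 3 for IHCs against OHCs at P1 and P7, 0 to 0, 0 to 1 and 1 to 3 over the whole duct in order of age, and 3 to 4 and 2 to 5 within HCs. Where 1 library of an age was left, it was assumed to vary like the others.

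Without thinning, the share of G2/M cells changed by -11.7 percentage points from E14 to E16, -2.66 from E16 to P1 and 0.521 from P1 to P7, and with a looser gate it changed by -2.34 from E16 to P1. The share of S-gated cells changed from E14 to E16 by -8.08 without thinning, -3.54 with a looser and -1.93 with a stricter gate.

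Scaling libraries by median ratios moved the percent of called genes that were higher from 43.1 to 74.6 over the whole duct from E14 to E16 (median log2 difference of all genes from -0.15 to -0.000756), from 55.7 to 44.1 in DCs (median from 0.05 to -0.06) and from 42.6 to 54.1 in interdental cells. Log means moved that percent from 51.3 to 75.9 in G2/M cells, 65.7 to 92.3 in S-gated cells, 36.9 to 71.1, 49.3 to 60.5 and 52.4 to 65.1 in HCs at E14, E16 and P7, 50 to 65.1 in PCs, 48.5 to 75.9 and 44.8 to 56.4 in lateral prosensory cells at E14 and E16, 42.6 to 57.7 in interdental cells, 55.5 to 44.2 for IHCs against OHCs at P7, 43.1 to 9.63 and 50.9 to 89 over the whole duct for the first steps, and 61.8 to 89.2 within HCs from E16 to P1. The S-gated cells of E16, 5 to 30 in a library, limit what could be seen there. All other cells as the reference for IHCs against OHCs were not run.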

Other observations

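Some kinesins that averaged under 10 CPM differed between HCs and other cells when no filter on low values was used, against 40.6% of all genes past the threshold at P1 and 36.8% at P7. Kif5a, the neuronal heavy chain of conventional kinesin, was at 14.7, 25.5, 35.7 and 33.6 CPM in P1 HCs against 0.457 to 1.95 CPM in other cells (log2 difference 1.73, SE 0.17, limma adjusted p = 3.71e-06). At P7 it was at 17.9 and 10.8 CPM against 2.44 and 0.97 CPM (1.04, SE 0.24, adjusted p = 0.00407). Kif13b, a relative of Kif13a that carries membrane cargo, was at 25.4 and 23.2 CPM in P7 HCs against 10.8 and 10.7 CPM (0.72, SE 0.19, adjusted p = 0.00806).

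Motors of supporting and inner-side cells also differed at ages not described above. Kif1c was at 25.6 and 75.3 CPM in P7 DCs, from 9 and 16 UMIs, against 9.31 and 11.2 CPM in other cells (1.45, SE 0.37, adjusted p = 0.0245, with 13.7% of all genes past the threshold). In HCs it was called lower at E16 and P1 but not at P7. Kif2a was at 22.8 and 37.6 CPM in P7 KO cells against 57 and 52.9 CPM in the other non-HCs (-0.72, SE 0.16, adjusted p = 0.00814). Kif1a was lower in embryonic KO cells, at 2.58 and 4.39 CPM against 12.2 and 16.3 CPM at E14 (-0.85, SE 0.18, adjusted p = 0.00321).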
